A study of Mus musculus with 6 samples.

Results

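A group of 10 imprinted genes with known roles in the hypothalamus, out of 22180 genes that the arrays name, were followed across 3 brain regions of the mouse. The genes were Magel2, Ndn, Peg3, Peg10, Dlk1, Meg3, Nnat, Gnas, Plagl1 and Asb4. They were listed by name, and each was read from its brightest probe set with a single gene symbol over the 6 arrays. All 10 had such a probe set. The study sampled the parvafox nucleus, a cord of parvalbumin and Foxb1 neurons in the ventrolateral hypothalamus, to learn which genes it uses more than other forebrain regions do. The nucleus, the cerebral cortex (piriform and entorhinal) and the hippocampus (the CA2 and CA3 fields) were cut out by laser from adult C57BL/6 animals, mouse 355 and mouse 511, giving 1 array per region and mouse and 2 arrays per region. The nucleus was found with the help of neighboring sections stained with the lectin Vicia villosa, and the captured tissue holds every cell type in the cut area. The RNA was amplified before hybridization to Affymetrix Mouse Gene 2.0 ST arrays, and the values are log2 signals, on which a difference of 1 is a 2-fold difference.

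An imprinted gene is transcribed mainly from the copy inherited from 1 parent, because the other copy carries DNA methylation or silent chromatin set in the germline. Such genes lie in clusters that share a control region, and the brain, with the placenta, is a main site of their action. In the hypothalamus they take part in feeding, growth hormone and oxytocin release, maternal care and body temperature. Magel2, Ndn, Peg3, Peg10, Dlk1, Nnat and Plagl1 are transcribed from the paternal copy and Meg3 and Asb4 from the maternal copy, while Gnas uses both copies in most tissues and mainly the maternal copy in a few. The arrays read total RNA, so the parental copy behind a signal is unknown here.

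The promoter windows of 4 members are shown because these members stand on both sides of the pattern described below. Magel2 and Peg3 had their highest signals in the nucleus, and Ndn and Nnat did not. The windows run from 250 bases before to 50 bases after the start, were taken from RefSeq on build GRCm38.p6, and are written 5′ to 3′ along the gene. Magel2 lies at chr7:62376729-62377028 on the plus strand, Ndn at chr7:62348027-62348326 on the plus strand, Peg3 at chr7:6730370-6730669 on the minus strand and Nnat at chr2:157559828-157560127 on the plus strand. Capitals mark matches on either strand to TGACGTCA (the cAMP response element), GGGGCCCC (the core bound by PLAGL1) and GCATGCGC or its reverse complement GCGCATGC (the element bound by NRF1).
Magel2: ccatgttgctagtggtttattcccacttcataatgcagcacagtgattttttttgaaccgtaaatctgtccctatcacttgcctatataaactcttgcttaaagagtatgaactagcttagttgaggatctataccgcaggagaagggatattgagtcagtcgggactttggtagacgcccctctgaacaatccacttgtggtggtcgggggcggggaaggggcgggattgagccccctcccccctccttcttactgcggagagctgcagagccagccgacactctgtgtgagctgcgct
Peg3: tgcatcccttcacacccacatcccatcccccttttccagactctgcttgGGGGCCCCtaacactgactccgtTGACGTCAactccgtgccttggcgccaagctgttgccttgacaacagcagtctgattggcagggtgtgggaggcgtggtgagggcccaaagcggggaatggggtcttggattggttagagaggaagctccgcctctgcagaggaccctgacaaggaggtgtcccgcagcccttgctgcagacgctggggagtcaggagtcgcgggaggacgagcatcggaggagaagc
Ndn: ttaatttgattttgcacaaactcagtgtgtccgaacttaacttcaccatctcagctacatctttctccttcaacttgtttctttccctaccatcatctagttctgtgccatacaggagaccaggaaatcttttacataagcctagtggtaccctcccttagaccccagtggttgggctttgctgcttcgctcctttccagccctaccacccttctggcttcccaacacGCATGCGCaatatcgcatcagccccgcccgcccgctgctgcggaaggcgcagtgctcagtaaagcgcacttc
Nnat: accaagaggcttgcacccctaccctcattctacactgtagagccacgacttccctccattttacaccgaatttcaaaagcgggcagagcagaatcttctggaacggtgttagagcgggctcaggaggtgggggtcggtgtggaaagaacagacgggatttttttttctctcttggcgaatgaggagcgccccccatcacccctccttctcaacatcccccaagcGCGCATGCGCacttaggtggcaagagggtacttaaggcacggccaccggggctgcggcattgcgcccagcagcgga
Peg3 held a cAMP response element at -178 and a PLAGL1 core at -201 relative to its start, Ndn held an NRF1 element at -22, Nnat held 2 overlapping NRF1 matches from -26, and Magel2 held none of the 3 motifs. Of 32851 windows of all genes, 1.79% hold the cAMP response element, 1.08% the PLAGL1 core and 2.71% the NRF1 element. The motifs were chosen after the sequences had been seen, and a match is only a description of the letters. Of the other members, Meg3 held a cAMP response element at -57 in 1 of its windows. Windows were found for 9 of the 10 members, 14 windows in all, and Peg10 is named only. The 4 windows shown hold 10 CpG sites for Magel2, 13 for Peg3, 11 for Ndn and 17 for Nnat, with a median of 7 over all windows. The starts of Ndn and Magel2 lie 28702 bases apart on the same strand of chromosome 7, and those of Dlk1 and Meg3 lie 88173 bases apart on chromosome 12.

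The captured tissue was checked with marker genes before the members were read. The hypothalamic markers Slc17a6, the glutamate transporter of these neurons, and Pmch, the precursor of melanin-concentrating hormone, were bright in both nucleus arrays, and 4 of 6 parvafox and lateral hypothalamic markers were higher there in all 4 within-mouse comparisons. The other 2 were not: Hcrt, the orexin precursor, was dim throughout, and Pvalb, the parvalbumin gene, read 7.91 and 7.70 on the nucleus arrays of mouse 355 and mouse 511, 7.95 and 5.74 on the cortical arrays and 7.001 and 6.78 on the hippocampal arrays, with an adjusted p of 0.740 and 0.686 against the cortex and the hippocampus in limma. The nucleus arrays were low for markers of telencephalic excitatory neurons, with a summed level of 8.88 to 9.39 in the nucleus, 11.5 to 12.1 in the cortex and 11.8 to 11.9 in the hippocampus. Of 7 such markers, 6 were lower in the nucleus in all 4 comparisons, as were 6 of 6 markers of GABAergic neurons. Oligodendrocyte markers went the other way, higher in all 4 comparisons for 6 of 7, with a summed level of 12.2 to 12.3 in the nucleus, 11.7 to 12.02 in the cortex and 9.97 to 10.5 in the hippocampus. The pan-neuronal sum was 12.6 to 13.04 in the nucleus, 13.2 to 13.3 in the cortex and 13.1 to 13.3 in the hippocampus. The 2 cortex arrays differed for some markers: Slc17a6 read 8.24 in mouse 355 and 6.24 in mouse 511. The cortical neuron gene Neurod6 read 5.27 and 9.28. Other excitatory neuron markers were closer, Slc17a7 at 9.51 and 9.96 and Slc30a3 at 9.54 and 9.49. The hippocampal arrays differed as well, with Slc17a6 at 4.29 in mouse 355 and 6.28 in mouse 511. The count of members higher in the nucleus in every comparison is given below also without either cortex array.

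Against both other regions, Peg10, Magel2 and Peg3 had the highest signals in the nucleus, and both nucleus arrays lay above the other 4 arrays for these 3 members. The gap between the lower nucleus array and the brightest other array was 0.80 for Peg10, 0.56 for Magel2 and 0.51 for Peg3. Over all genes, 10.7% had both nucleus arrays above the other 4, against 3 of the 10 members. Dlk1 joined the 3 as higher in the nucleus within each mouse against each region, so that 4 members were higher in all 4 comparisons, where 16.2% of genes were. Meg3 was the 1 member lower in all 4, where 15.1% of genes were (with the Actb signal subtracted it was not lower than the cortex in mouse 355), and the other 5 members had mixed signs.

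None of these differences passed limma's test after Benjamini-Hochberg adjustment over all 41345 probe sets. Against the cortex 0 of 10 members passed, where 0% of probe sets did, and 3 members (Magel2, Peg3 and Peg10) had an unadjusted p under 0.05, as did 7.89% of probe sets. Against the hippocampus 0 members passed, where 0.00242% of probe sets did, and the same 3 members had an unadjusted p under 0.05, as did 9.56% of probe sets. The comparisons with the cortex and with the hippocampus share the nucleus arrays. A difference of at least 2-fold in both mice, a rule without a test, was met against the cortex by 0 members and by 1.37% of genes in either direction. Against the hippocampus it was met by Magel2 and Peg10, 2 members, and by 2.51% of genes. The median log2 fold change of the members was 0.13 against the cortex and 0.39 against the hippocampus, beside 0.01 and 0.02 over all genes. The number of arrays limits what the test can show. In bulk tissue, a larger share of cells that use a gene and more RNA per cell cannot be told apart.

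**Figure D1:**
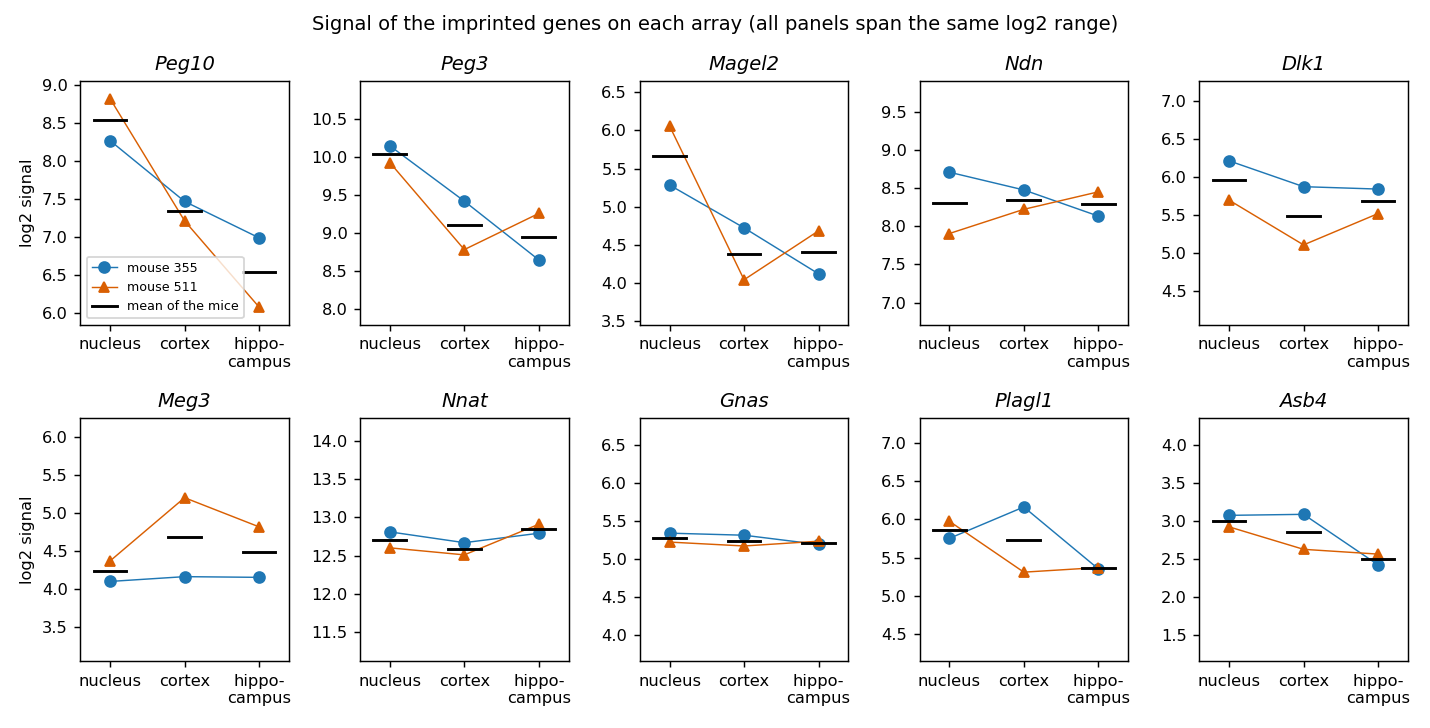
Log2 signal (y axis, each panel spanning the same number of log2 units) of the 10 imprinted genes in the nucleus, cortex and hippocampus of mouse 355 (circles) and mouse 511 (triangles), with bars at the mean of the 2 mice. Both nucleus points lie above all other points for Peg10, Peg3 and Magel2, while Ndn, Nnat and Gnas overlap between regions.

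Peg10 encodes a protein that derives from a retrotransposon and keeps its gag-like and pol-like frames, and in the mouse it is needed for the placenta. Its signal on the nucleus arrays was 8.27 (mouse 355) and 8.82 (mouse 511), with 7.47 and 7.21 on the cortical and 6.99 and 6.08 on the hippocampal arrays of the same mice. The regions did not overlap, and the order nucleus, cortex, hippocampus held within each mouse. The nucleus was 1.74-fold and 3.04-fold brighter than the cortex in mouse 355 and mouse 511, and 2.42-fold and 6.66-fold brighter than the hippocampus. By limma, the nucleus differed from the cortex by 1.20 log2 units (SE 0.38, 95% interval 0.21 to 2.19, adjusted p = 0.584) and from the hippocampus by 2.01 (SE 0.38, 1.01 to 2.998, adjusted p = 0.285). Both came mostly from mouse 511. Without its nucleus array the values were 0.63 and 1.44, and without the nucleus array of mouse 355 they were 1.77 and 2.57.

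Peg10 lies in an imprinted cluster with Sgce, and Asb4 belongs to the same cluster. Asb4 encodes an ankyrin repeat protein of a cullin-5 ubiquitin ligase and is known from neurons of the arcuate nucleus. Its probe set was dim, at 3.07 and 2.92 on the nucleus arrays of mouse 355 and mouse 511, 3.08 and 2.62 on the cortical arrays and 2.42 and 2.56 on the hippocampal arrays, and on 0 of 6 arrays did it exceed the array's median probe set. The other 9 members exceeded it on 6 of 6 arrays. Both nucleus values of Asb4 lay above both hippocampal values, but the cortex of mouse 355 slightly exceeded its nucleus. In limma's fit the nucleus differed from the cortex by 0.14 log2 units (SE 0.23, 95% interval -0.45 to 0.73, adjusted p = 0.915) and from the hippocampus by 0.50 (SE 0.23, -0.09 to 1.10, adjusted p = 0.580). Without the hippocampal array of mouse 355 the difference from the hippocampus was 0.28.

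The other genes of this cluster did not share the pattern of Peg10 by count: of 7 measured, 1 was higher and 2 were lower in the nucleus in all 4 comparisons, and 4 had mixed signs. Over all genes, 16.2% were higher and 15.1% lower in all 4. Ppp1r9a, which encodes the actin-binding protein neurabin, read 6.71 and 7.29 on the nucleus arrays of mouse 355 and mouse 511, 7.50 and 7.87 on the cortical arrays and 7.52 and 7.58 on the hippocampal arrays, so that both nucleus arrays were below the other 4, although with Actb subtracted it was not lower in all 4 comparisons. Calcr, the calcitonin receptor, read 3.37 and 4.11 on the nucleus arrays, 3.23 and 3.47 on the cortical arrays and 3.37 and 3.48 on the hippocampal arrays. It was dim, and only on the nucleus array of mouse 511 did it exceed the array's median probe set.

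Irs4, an insulin receptor substrate that ASB4 is known to bind, was the list member with the widest difference among the 8 measured genes of the cullin-5 ligase and its neighbors. It read 6.27 and 6.85 on the nucleus arrays of mouse 355 and mouse 511, 5.43 and 3.02 on the cortical arrays and 3.61 and 3.20 on the hippocampal arrays. The nucleus was above all 4 other arrays, but the cortex of mouse 355 lay well above that of mouse 511. Fitted by limma, the nucleus gave a log2 fold change of 2.33 over the cortex (SE 0.72, adjusted p = 0.578) and 3.15 over the hippocampus (SE 0.72, adjusted p = 0.333 in limma). None of the 8 genes passed in either comparison, and 1 had an unadjusted p under 0.05 in each. Over all probe sets, 7.89% did against the cortex and 9.56% against the hippocampus.

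Magel2 encodes a MAGE protein that binds the ubiquitin ligase TRIM27 and helps the WASH complex and retromer return proteins from endosomes, and in the mouse its loss disturbs feeding, oxytocin neurons and body fat. Its signal on the nucleus arrays was 5.28 (mouse 355) and 6.06 (mouse 511), with 4.72 and 4.04 on the cortical and 4.12 and 4.68 on the hippocampal arrays of the same mice. Both nucleus values lay above the rest, while cortex and hippocampus changed places between the mice. The nucleus was 1.48-fold brighter than the cortex in mouse 355 and 4.05-fold brighter in mouse 511, and 2.24-fold and 2.60-fold brighter than the hippocampus. By limma, the nucleus differed from the cortex by 1.29 log2 units (SE 0.40, 95% interval 0.24 to 2.34, adjusted p = 0.581) and from the hippocampus by 1.27 (SE 0.40, 0.22 to 2.32, adjusted p = 0.457). The cortex value rested on the choice of array, at 1.97 when the cortical array of mouse 355 was left out and 0.62 when the cortical array of mouse 511 was.

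Ndn, the neighbor of Magel2, encodes necdin, a MAGE protein of postmitotic neurons that in the mouse acts in their differentiation and survival. Its signal was 8.71 and 7.91 on the nucleus arrays of mouse 355 and mouse 511, 8.48 and 8.22 on the cortical arrays and 8.14 and 8.45 on the hippocampal arrays. The nucleus of mouse 355 held the highest value of the 6 and the nucleus of mouse 511 the lowest, so the regions overlapped fully. In limma's fit the nucleus differed from the cortex by -0.04 log2 units (SE 0.31, 95% interval -0.86 to 0.78, adjusted p = 0.984) and from the hippocampus by 0.01 (SE 0.31, -0.81 to 0.83, adjusted p = 0.995). These intervals reach close to a 2-fold difference in either direction, so a difference below that size is not excluded. Larger differences also failed to pass with this number of arrays. Peg10 against the hippocampus, at 2.01 log2 units, had an adjusted p of 0.285 in limma.

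The remaining genes of the Prader-Willi domain, in which Ndn and Magel2 lie, had mixed signs in 4 of 4 measured cases. Ube3a, the ubiquitin ligase of Angelman syndrome, read 8.60 and 8.91 on the nucleus arrays of mouse 355 and mouse 511, 8.63 and 8.65 on the cortical arrays and 8.06 and 8.30 on the hippocampal arrays. The probe sets of Snrpn, a splicing protein, carry the symbol of Snurf as well, and the brighter of them read 11.15 and 10.85 on the nucleus arrays, 11.21 and 11.21 on the cortical arrays and 11.03 and 11.36 on the hippocampal arrays.

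Partners of MAGEL2 were read from a list of 12 genes of TRIM27, its deubiquitinase and the WASH and retromer complexes, all measured. In the nucleus 3 were higher and 3 lower in all 4 comparisons, where 16.2% and 15.1% of all genes were. With limma 0 passed. At an unadjusted p under 0.05, 2 were lower against the cortex, and 2 were higher and 1 lower against the hippocampus. Over all probe sets, 7.89% and 9.56% were past that p in either direction. Washc5, the strumpellin subunit of the WASH complex, read 6.58 and 6.50 on the nucleus arrays of mouse 355 and mouse 511, 7.19 and 7.34 on the cortical arrays and 7.20 and 6.71 on the hippocampal arrays. Trim27 itself read 7.58 and 6.54 on the nucleus arrays, 7.19 and 7.71 on the cortical arrays and 6.10 and 5.05 on the hippocampal arrays, so that it was high against the hippocampus and not against the cortex of mouse 511. Among 6 other MAGE genes, 1 was higher and 2 were lower in all 4 comparisons. Maged2 was the higher one, at 6.84 and 6.78 on the nucleus arrays, 6.42 and 5.55 on the cortical arrays and 6.15 and 6.25 on the hippocampal arrays (log2 fold change 0.83 against the cortex, SE 0.30, adjusted p = 0.620 from limma).

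Mouse Magel2 loss is known to lower secretory granule proteins, so the genes of prohormone processing were read as well. Of 9 measured, 3 were higher and 3 lower in the nucleus in all 4 comparisons, where 16.2% and 15.1% of all genes were. With limma 0 passed in any comparison. At an unadjusted p under 0.05, 1 was lower against the cortex, and 1 was higher and 1 lower against the hippocampus. Over all probe sets, 7.89% and 9.56% were past that p in either direction. Secretogranin II (Scg2) read 9.99 and 9.85 on the nucleus arrays of mouse 355 and mouse 511, 9.48 and 9.34 on the cortical arrays and 9.30 and 8.72 on the hippocampal arrays. Chromogranin B (Chgb) read 9.59 and 8.91 on the nucleus arrays, 9.74 and 10.41 on the cortical arrays and 9.67 and 9.97 on the hippocampal arrays. With the Actb signal subtracted, Chgb was not lower than the cortex in mouse 355. The granins thus lay on both sides.

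Peg3 encodes a large zinc finger protein of neurons that in the mouse affects maternal behavior, milk letdown and body temperature. Its signal on the nucleus arrays was 10.15 (mouse 355) and 9.93 (mouse 511), with 9.42 and 8.78 on the cortical and 8.65 and 9.26 on the hippocampal arrays of the same mice. Both nucleus values were above all others. The nucleus was 1.65-fold and 2.21-fold brighter than the cortex in mouse 355 and mouse 511, and 2.83-fold and 1.59-fold brighter than the hippocampus. By limma, the nucleus differed from the cortex by 0.93 log2 units (SE 0.34, 95% interval 0.04 to 1.83, adjusted p = 0.621) and from the hippocampus by 1.08 (SE 0.34, 0.19 to 1.98, adjusted p = 0.455). Against the cortex it was 0.52 when the cortical array of mouse 511 was left out, and against the hippocampus it was 0.56 when the hippocampal array of mouse 355 was left out.

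A further probe set that carries the symbols of both Peg3 and its antisense transcript Peg3os read 10.03 and 10.34 on the nucleus arrays of mouse 355 and mouse 511, 9.21 and 9.35 on the cortical arrays and 8.62 and 9.70 on the hippocampal arrays. Both nucleus arrays were again the brightest, with a log2 fold change of 0.91 relative to cortex and 1.02 relative to hippocampus. Which of the 2 transcripts this probe set reads was not tested.

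Peg3 shares its cluster with further zinc finger and protease genes, and both of those measured were higher in the nucleus in all 4 comparisons. Zim1, a zinc finger gene that in the mouse is transcribed from the maternal copy, read 5.08 and 5.02 on the nucleus arrays of mouse 355 and mouse 511, 3.94 and 3.51 on the cortical arrays and 3.76 and 4.11 on the hippocampal arrays (log2 fold change 1.33 against the cortex, SE 0.26, adjusted p = 0.444, and 1.12 against the hippocampus, SE 0.26, adjusted p = 0.333, in limma). Usp29, a deubiquitinase gene that shares a control region with Peg3, read 6.78 and 7.22 on the nucleus arrays, 6.31 and 6.43 on the cortical arrays and 4.35 and 6.41 on the hippocampal arrays. With Peg3, the 3 genes of the cluster that have a probe set of their own each had both nucleus arrays above the other 4, where 10.7% of all genes did, and none passed the adjusted test. A dim probe set shared by Zim3 and Usp29 overlapped between regions, at 3.59 and 3.89 on the nucleus arrays of mouse 355 and mouse 511, 3.50 and 3.78 on the cortical arrays and 3.67 and 3.39 on the hippocampal arrays.

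**Figure D2:**
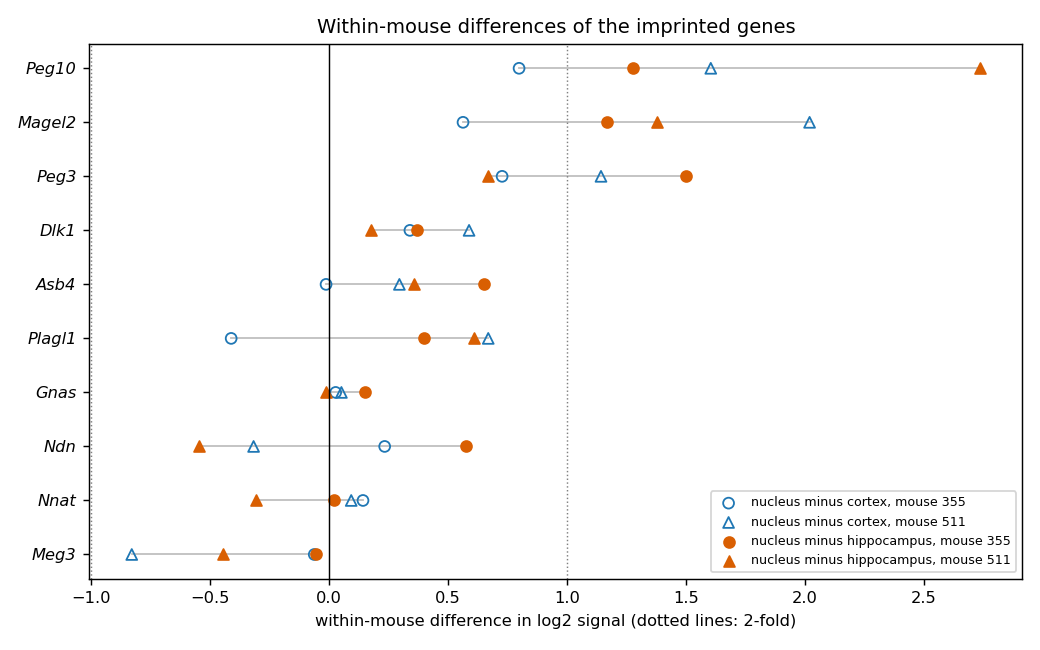
Difference in log2 signal between the nucleus and the cortex (open) or the hippocampus (filled) within mouse 355 (circles) and mouse 511 (triangles) for the 10 imprinted genes, with the range of the 4 differences as a line and 2-fold marked by dotted lines. The 4 values run between 0.80 and 2.74 for Peg10 and between 0.56 and 2.02 for Magel2, and fall on both sides of 0 for Ndn, between -0.55 and 0.58.

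Dlk1 encodes a membrane protein of the Notch ligand family that lacks the usual Notch-binding domain and is known from hypothalamic orexin neurons and from fat cell precursors. Its signal was 6.22 and 5.70 on the nucleus arrays of mouse 355 and mouse 511, 5.88 and 5.11 on the cortical arrays and 5.84 and 5.52 on the hippocampal arrays. The nucleus was brighter within each mouse, by 1.27-fold and 1.503-fold over the cortex and 1.29-fold and 1.13-fold over the hippocampus, but the nucleus of mouse 511 lay below the cortex and the hippocampus of mouse 355. In limma's fit the nucleus differed from the cortex by 0.46 log2 units (SE 0.21, 95% interval -0.08 to 1.00, adjusted p = 0.682) and from the hippocampus by 0.27 (SE 0.21, -0.27 to 0.81, adjusted p = 0.750). The first value was 0.29 with the cortical array of mouse 511 left out, and the second was 0.11 or 0.43 with the hippocampal array of mouse 355 or mouse 511 left out.

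Meg3 is a long noncoding RNA of the same cluster, transcribed from the other parental copy than Dlk1. Its probe set with a single symbol read 4.10 and 4.37 on the nucleus arrays of mouse 355 and mouse 511, 4.16 and 5.20 on the cortical arrays and 4.16 and 4.82 on the hippocampal arrays. In mouse 355 the regions lay within 0.06 of each other, and only in mouse 511 was the nucleus clearly below, at 1.78-fold against the cortex and 1.36-fold against the hippocampus. By limma, the nucleus differed from the cortex by -0.45 log2 units (SE 0.25, 95% interval -1.10 to 0.21, adjusted p = 0.734) and from the hippocampus by -0.25 (SE 0.25, -0.91 to 0.41, adjusted p = 0.820). Against the cortex the value was -0.16 without either the nucleus or the cortical array of mouse 511, -0.74 without the nucleus array of mouse 355 and -0.73 without its cortical array. Against the hippocampus it was 0.04 when the nucleus array of mouse 511 was left out and -0.54 when the nucleus array of mouse 355 was.

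Other probe sets with the Meg3 symbol did not follow this one. The probe set shared with Mir770 read 6.18 and 5.73 on the nucleus arrays of mouse 355 and mouse 511, 5.63 and 5.75 on the cortical arrays and 5.47 and 5.69 on the hippocampal arrays, with log2 fold changes of 0.27 against the cortex and 0.38 against the hippocampus. The probe set shared with Mir1906-1 and Mir1906-2 read 5.84 and 7.36 on the nucleus arrays, 6.69 and 7.55 on the cortical arrays and 7.84 and 7.03 on the hippocampal arrays. The 3 probe sets of Meg3 thus differed in the sign of the difference, and no direction is given for the gene.

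Rian, another maternally transcribed noncoding RNA of the Dlk1-Dio3 cluster, had the clearest difference there among the genes listed beside the members. It read 7.92 and 8.44 on the nucleus arrays of mouse 355 and mouse 511, 7.13 and 7.68 on the cortical arrays and 6.63 and 7.40 on the hippocampal arrays, and both nucleus arrays were above the other 4. Its log2 fold change came to 0.77 for the cortex (SE 0.19, adjusted p = 0.524) and 1.17 against the hippocampus (SE 0.19, adjusted p = 0.256 in limma). The thyroid hormone deiodinase Dio3 read 2.87 and 3.31 on the nucleus arrays, 3.58 and 2.76 on the cortical arrays and 3.28 and 4.58 on the hippocampal arrays, and overlapped between regions. It was dim, and only on the hippocampal array of mouse 511 did it exceed the array's median probe set.

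Of 12 Notch pathway genes, 1 was higher and 2 were lower in the nucleus in all 4 comparisons, where 16.2% and 15.1% of all genes were. With limma 0 passed. Against the hippocampus 0 had an unadjusted p under 0.05, where 9.56% of probe sets did. Against the cortex 1 did, lower in the nucleus, where 7.89% of probe sets did. That gene was Dlk2, the close relative of Dlk1, at 4.25 and 4.39 on the nucleus arrays of mouse 355 and mouse 511, 4.84 and 5.15 on the cortical arrays and 4.53 and 5.02 on the hippocampal arrays (log2 fold change -0.68 against the cortex, SE 0.20, adjusted p = 0.565 from limma). Within each mouse Dlk2 lay below both other regions, opposite to Dlk1.

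Nnat encodes neuronatin, a small membrane protein of the endoplasmic reticulum thought to act on calcium pumps. Its signal was close to the top of the range of these arrays in every region, at 12.81 and 12.60 on the nucleus arrays of mouse 355 and mouse 511, 12.67 and 12.51 on the cortical arrays and 12.79 and 12.91 on the hippocampal arrays. The regions overlapped, within 0.40 over all 6 arrays. In limma's fit the nucleus differed from the cortex by 0.12 log2 units (SE 0.20, 95% interval -0.40 to 0.63, adjusted p = 0.918) and from the hippocampus by -0.15 (SE 0.20, -0.66 to 0.37, adjusted p = 0.879). A dimmer probe set of Nnat read 10.18 and 10.44 on the nucleus arrays, 9.72 and 9.82 on the cortical arrays and 10.47 and 10.90 on the hippocampal arrays, so that here the nucleus lay between the other regions in both mice (log2 fold change 0.55 against the cortex and -0.37 against the hippocampus). Of 5 calcium pump and regulator genes, 0 were higher and 1 was lower in all 4 comparisons, where 16.2% and 15.1% of all genes were. The lower one was Atp2a2, the main pump of neurons. It read 9.66 and 9.24 on the nucleus arrays, 9.78 and 10.02 on the cortical arrays and 9.67 and 10.21 on the hippocampal arrays. With Actb subtracted it was not lower in all 4.

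Gnas encodes the stimulatory G protein alpha subunit and, from other promoters of the same locus, further imprinted transcripts. The probe set with the single symbol Gnas had the narrowest range of the 10 members, 0.17 over the 6 arrays. It read 5.34 and 5.23 on the nucleus arrays of mouse 355 and mouse 511, 5.32 and 5.18 on the cortical arrays and 5.20 and 5.24 on the hippocampal arrays. The regions overlapped, and in limma's fit the nucleus differed from the cortex by 0.04 log2 units (SE 0.19, 95% interval -0.45 to 0.53, adjusted p = 0.976) and from the hippocampus by 0.07 (SE 0.19, -0.42 to 0.55, adjusted p = 0.947). Which transcripts of the locus it reads was not tested. A probe set shared with the antisense gene Gnasas1 read 3.86 and 3.65 on the nucleus arrays, 3.77 and 3.27 on the cortical arrays and 3.42 and 3.06 on the hippocampal arrays.

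The cAMP pathway around Gnas was read from 18 measured genes. They cover G protein subunits, adenylyl cyclases and protein kinase A, and also Ric8b, Creb1 and the receptor genes Mc4r, Crhr1 and Adcyap1r1. In the nucleus 3 were higher and 4 lower in all 4 comparisons, where 16.2% and 15.1% of all genes were. None passed limma's test, and at an unadjusted p under 0.05 there were 4 lower against the cortex and 2 lower against the hippocampus, and 0 higher in both. Over all probe sets, 7.89% and 9.56% were past that p in either direction. Adcy1, the calcium-stimulated adenylyl cyclase of telencephalic neurons, read 4.81 and 5.43 on the nucleus arrays of mouse 355 and mouse 511, 6.50 and 6.93 on the cortical arrays and 7.15 and 7.83 on the hippocampal arrays (log2 fold change -1.59 against the cortex, adjusted p = 0.310, and -2.37 against the hippocampus, adjusted p = 0.149, SE 0.19 each, from limma). Gng7, a G protein gamma subunit, read 7.65 and 7.86 on the nucleus arrays, 8.88 and 10.03 on the cortical arrays and 9.82 and 9.24 on the hippocampal arrays. For both genes the nucleus arrays were the lowest. Markers of telencephalic excitatory neurons were also lower in all 4 comparisons for 6 of 7, and their part in these values was not tested.

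Plagl1 encodes a zinc finger factor that restrains cell growth and in the mouse acts on other imprinted genes. It read 5.75 and 5.98 on the nucleus arrays of mouse 355 and mouse 511, 6.16 and 5.31 on the cortical arrays and 5.35 and 5.37 on the hippocampal arrays. Both nucleus values lay above both hippocampal values, which differed by only 0.02, while the cortex of mouse 355 was the highest of the 6 arrays and that of mouse 511 the lowest. By limma, the nucleus differed from the cortex by 0.13 log2 units (SE 0.32, 95% interval -0.70 to 0.96, adjusted p = 0.949) and from the hippocampus by 0.50 (SE 0.32, -0.33 to 1.34, adjusted p = 0.695). The value against the cortex was -0.36 when the cortical array of mouse 511 was left out and 0.62 when the cortical array of mouse 355 was, and the value against the hippocampus was 0.18 when the nucleus array of mouse 511 was left out and 0.83 when the nucleus array of mouse 355 was. A dimmer probe set read 2.92 and 5.27 on the nucleus arrays, 4.11 and 2.67 on the cortical arrays and 2.10 and 5.65 on the hippocampal arrays, so that the mice differed more than the regions. Its relatives Plag1 and Plagl2 had mixed signs.

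**Figure D3:**
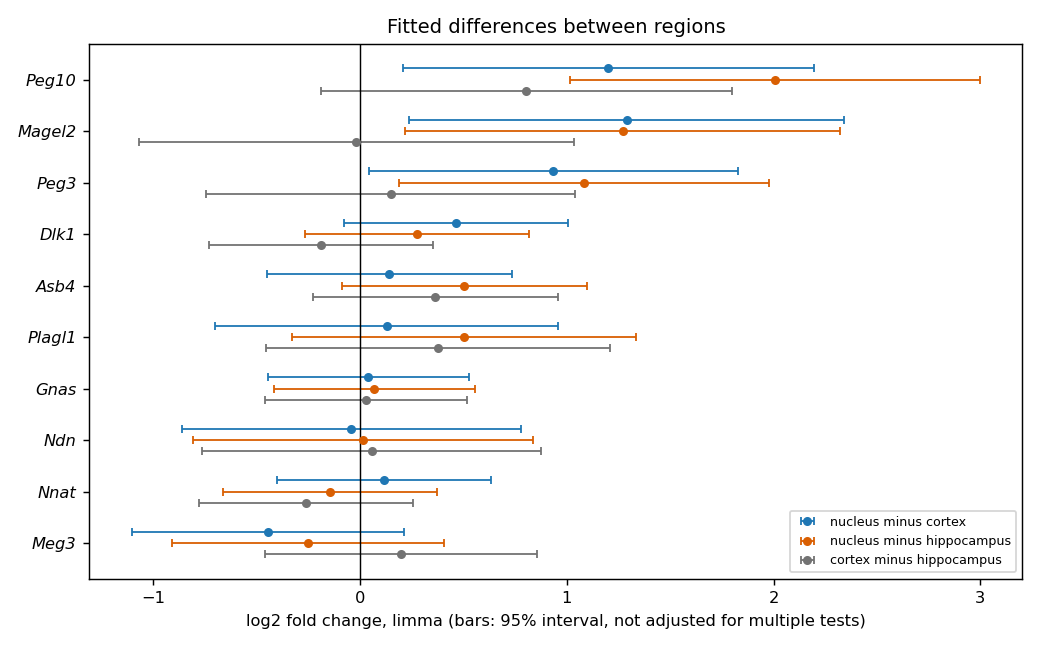
Log2 fold change of the 10 imprinted genes from limma (points) with 95% intervals that are not adjusted for multiple tests (bars), for the nucleus against the cortex, the nucleus against the hippocampus and the cortex against the hippocampus. The intervals against both regions lie above 0 for Peg10, Magel2 and Peg3, with Peg10 against the hippocampus the highest at 2.01, and 0 members passed after adjustment.

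The cortex and the hippocampus, set against each other, gave no member past the test. With limma 0 of 10 passed, where 0% of all probe sets did, and 0 members had an unadjusted p under 0.05, as 4.74% of probe sets did. At least 2-fold in both mice was met by 0 members and by 0.505% of genes. Among the probe sets used for the members, Peg10 had the lowest p, with a log2 fold change of 0.80 (SE 0.38, 95% interval -0.19 to 1.80, adjusted p = 0.999), higher in the cortex in both mice, by 1.39-fold in mouse 355 and 2.19-fold in mouse 511. This value was 0.28 when the hippocampal array of mouse 511 was left out and 1.33 when the hippocampal array of mouse 355 was. The dimmer probe set of Nnat, not used for the counts, lay lower in the cortex in both mice, by -0.75 and -1.08 on the log2 scale (fitted -0.91, SE 0.20, adjusted p = 0.980 from limma). For Magel2, Peg3, Ndn, Dlk1, Gnas and Plagl1 the cortex was the higher region in mouse 355 and the lower in mouse 511.

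Without the cortex array of mouse 355, 6 members were higher in the nucleus in every remaining comparison (Plagl1 and Asb4 were added), as were 22.6% of genes. Without the cortex array of mouse 511 the number was 4, against 21.3% of genes. Magel2, Peg3, Peg10 and Dlk1 were in each of these sets. In mouse 511 alone 6 members were higher in the nucleus than in both other regions and in mouse 355 alone 7 were, against 38.8% and 35.2% of genes.

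Among 55 measured imprinted genes beyond the members, of 69 listed, 13 were higher in the nucleus in all 4 comparisons, 7 were lower and 35 had mixed signs, which is 23.6% higher and 12.7% lower, where 16.2% and 15.1% of all genes were. The 7 depend on the scaling: with Actb subtracted, Casd1, Igf2, Ppp1r9a and Mest, for example, were not lower in all 4. Shares of all genes on that scale were not counted. The list was not limited to genes imprinted in brain, and it holds Gatm, for example, which is imprinted in mouse placenta. With limma 0 passed in any comparison. At an unadjusted p under 0.05, there were 3 higher and 2 lower in the comparison with the cortex, and 8 higher and 1 lower in that with the hippocampus, where 7.89% and 9.56% of all probe sets were past that p in either direction. The median log2 fold change was 0.07 against the cortex and 0.11 against the hippocampus. Of the 55, 9 had both nucleus arrays above the other 4, where 10.7% of genes did, and 3 had both below. The share of all genes with both below was not counted, so no tilt is read from these counts. Beside Zim1, Usp29 and Rian, the higher ones include Grb10, an adaptor of the insulin receptor that in brain is transcribed from the paternal copy, at 5.73 and 6.41 on the nucleus arrays of mouse 355 and mouse 511, 5.68 and 5.35 on the cortical arrays and 5.53 and 5.53 on the hippocampal arrays. They also include Qpct, the glutaminyl cyclase that modifies the ends of peptide hormones, at 7.17 and 7.42 on the nucleus arrays, 5.82 and 6.99 on the cortical arrays and 5.77 and 6.10 on the hippocampal arrays. The paternally transcribed Mest was lower in all 4 comparisons, at 6.60 and 6.96 on the nucleus arrays, 6.94 and 7.31 on the cortical arrays and 7.09 and 7.29 on the hippocampal arrays, although not with Actb subtracted.

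**Figure D4:**
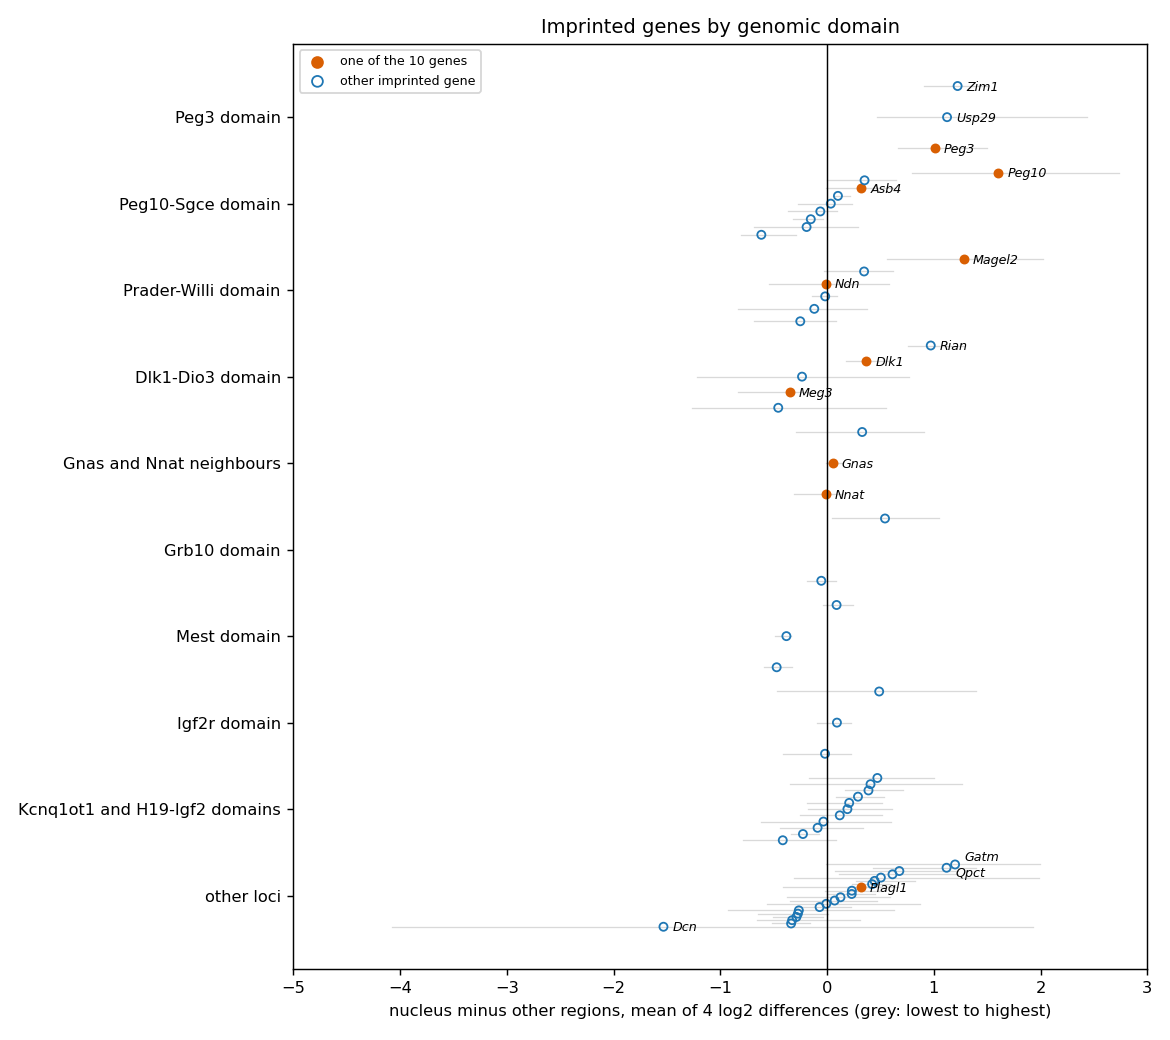
Mean of the 4 within-mouse differences in log2 signal between the nucleus and the other regions (x axis) for the 10 genes (filled) and 55 other imprinted genes (open), grouped by genomic domain, with grey lines from the lowest to the highest of the 4. In the Peg3 domain all 3 genes with a probe set of their own lie above 0, and in the Prader-Willi domain Magel2 lies at 1.28 and Ndn at -0.01.

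The genes most like Magel2, Peg3 and Peg10 were sought by the largest gap between their 4 within-mouse differences and those of the member. For Magel2 these were Minar2 (largest gap 0.17) and Pcgf5 (0.20), for Peg3 Ccdc82 (0.08) and Nfatc3 (0.12), and for Peg10 Atp5j2 (0.51) and Yes1 (0.52). Among all 22180 genes, none came nearer to Peg10 than 0.51. The likeness rests on 4 differences from 6 arrays, and is only a description.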

How the data were processed

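The deposited values are log2 signals that the authors obtained from the scanned arrays by RMA (Affymetrix Expression Console); the submitters' notes also name R 2.14.2, limma and Partek. RMA corrects background, equalizes the distributions of the arrays and summarizes probes, so a shift shared by most genes is removed. The sources used here give neither the genome build behind the annotation nor the strand and position of the probe sets. Of 41345 probe sets, 23521 have 1 symbol, 1820 several and 16004 none. All 23328 matched by gene ID to RefSeq names of GRCm38.p6 have the same symbol there. A gene was read from its brightest probe set of 1 symbol.

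Regions were compared with limma 3.58.1 in R 4.3.3, with mouse as a fixed block because the regions come from the same animals, 2 residual and 2.769 prior degrees of freedom, and Benjamini-Hochberg adjustment across the whole array (threshold 0.05). Deviations of the 2 mice correlated at 0.0794 (nucleus and cortex), 0.0587 (nucleus and hippocampus) and 0.0603 (cortex and hippocampus). With mouse as a block, the overall difference between the 2 mice is removed. The p-values rest on how the region differences vary between these mice, joined with a prior variance drawn from all probe sets. The procedure was tested on simulated data. A summed level is the log2 of the sum of a list's linear signals. Named beside the members were up to 4 genes of each list with the largest mean difference and the 2 genes nearest to a member. The members and lists were chosen with earlier results of these data known. Alternatives were no block, a random block, other sets of probe sets, other scalings and variance models, other fold limits and each array left out. Python 3.11.15, pandas 2.3.3, numpy 2.4.6 and matplotlib 3.10.9 were used for counts and plots.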

Additional observations from a re-analysis of the deposited data

How the results depend on the processing

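Of 477 log2 fold changes of members under alternatives, 449 kept their direction, 28 reversed and 0 passed the test. Many of the 449 could not have reversed. A change of the block, of the probe sets tested or of the variance model left the fitted value as it was. So did leaving out an array of the region outside the comparison. Magel2 against the cortex, for example, stayed at 1.29 in these settings. The 449 values are therefore no measure of stability. The count of members called was 0 in every comparison and setting, also with no replicate block (0 in each comparison). With 2 arrays a region few calls could be made in any setting, so these zeros say nothing about stability or about the pairing by mouse; the SE of Dlk1, for example, was 0.33 without the block and 0.21 with it. For Peg10 and Dlk1 no value reversed, and for Magel2 and Peg3 none against the cortex or the hippocampus did. Subtracting Actb, itself lower in the nucleus of mouse 511 than on the other arrays, moved the median of all genes by 0.37 for nucleus against cortex, 0.16 for nucleus against hippocampus and -0.21 for cortex against hippocampus.

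At 1.5-fold in both mice 2 members were apart against the cortex, and at 3-fold 0 against the hippocampus. In 1 mouse alone, the counts at 2-fold ran between 0 and 3 for nucleus against cortex and between 0 and 1 for cortex against hippocampus. Shares of all genes at 1.5-fold, at 3-fold or in 1 mouse were not counted. Nothing is therefore read from these counts. Members higher in the nucleus throughout numbered 4 to 7 with a mouse or a cortical array left out.

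Ndn reversed against the cortex with cyclic loess (0.012) and with Actb subtracted (0.33), against the hippocampus with median centring (-0.042), and for cortex against hippocampus with Actb subtracted (-0.16). With Actb subtracted, Peg3 (-0.066), Meg3 (-0.018) and Gnas (-0.19) reversed between cortex and hippocampus and Nnat (0.013) between nucleus and hippocampus. With the mean over probe sets, Plagl1 reversed between cortex and hippocampus (-0.055).

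The other reversals came from leaving out 1 array. The values then ran, for nucleus against cortex, between -0.46 and 0.38 for Ndn, -0.013 and 0.091 for Gnas, -0.36 and 0.62 for Plagl1, and -0.086 and 0.37 for Asb4. For nucleus against hippocampus they ran between -0.41 and 0.44 for Ndn, -0.54 and 0.040 for Meg3, -0.30 and 0.0057 for Nnat, and -0.018 and 0.15 for Gnas. For cortex against hippocampus they ran between -0.69 and 0.66 for Magel2, -0.37 and 0.48 for Ndn, -0.37 and 0.67 for Peg3, -0.089 and 0.48 for Meg3, -0.057 and 0.12 for Gnas, and -0.11 and 0.86 for Plagl1. The cause of the reversals was not tested.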

Other observations

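Among the 55 imprinted genes counted above, 4 outside the clusters of the members had values not yet given. Gatm, which makes the precursor of creatine and is imprinted in mouse placenta, read 7.59 and 8.30 on the nucleus arrays of mouse 355 and mouse 511, 7.60 and 6.48 on the cortical arrays and 6.59 and 6.30 on the hippocampal arrays, and the cortex of mouse 355 slightly exceeded its nucleus. Nap1l5, a paternally transcribed relative of nucleosome assembly proteins, read 10.41 and 9.90 on the nucleus arrays, 9.75 and 9.15 on the cortical arrays and 9.18 and 9.82 on the hippocampal arrays. Dcn, a proteoglycan of connective tissue, read 6.02 and 6.72 on the nucleus arrays, 6.63 and 4.79 on the cortical arrays and 10.10 and 10.10 on the hippocampal arrays. Markers of ependyma, choroid plexus and meninges, a list that holds Dcn, had a summed level of 7.68 to 7.98 in the nucleus, 7.53 to 7.95 in the cortex and 10.3 in the hippocampus, and their part in the Dcn value was not tested. Cdkn1c, a maternally transcribed cell cycle inhibitor, read 5.74 and 4.77 on the nucleus arrays, 5.12 and 5.13 on the cortical arrays and 4.48 and 4.67 on the hippocampal arrays, and overlapped between nucleus and cortex.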
